A study of Rattus norvegicus with 30 samples.

Results

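Carboxylesterases are serine hydrolases of the endoplasmic reticulum that cleave ester, amide and thioester bonds in drugs and in neutral lipids, and liver is a tissue in which they are abundant. The 10 rat genes described here are Ces1c, Ces1d, Ces1e and Ces1f of family 1, Ces2a, Ces2c, Ces2e, Ces2h and Ces2j of family 2, and Aadac, which encodes arylacetamide deacetylase, a related microsomal hydrolase. They were chosen by name and followed through every probe whose transcript is assigned to them. Of the 10 genes, 9 had a probe among the 26912 genes and unnamed transcripts measured, with 11 probes in all, and Ces2a is not analysed here. Carboxylesterases of family 1 tend to prefer substrates with a large acyl group, and those of family 2 substrates with a large alcohol group. In mouse, Ces1d is known as triacylglycerol hydrolase, which releases fatty acids from stored triglyceride for lipoprotein assembly, Ces1e is egasyn, which holds beta-glucuronidase in the endoplasmic reticulum, and Ces1c is a secreted plasma esterase.

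Liver RNA came from male animals fed a diet with 0 or 1000 ppm PB (phenobarbital) for 7 days, measured on 30 1-colour rat arrays. The control and the PB group held 7 animals each for mice whose liver carries rat hepatocytes (chimeric mice), 4 each for the outbred Crl:CD(SD) stock (SD rats below), and 4 each for rats with a knockout of CAR (CAR KO rats). CAR, the constitutive androstane receptor encoded by Nr1i3, is the nuclear receptor through which phenobarbital is known to induce Cyp2b genes. Ages, the host strain and the donor stock of the chimeric mice, the share of their liver that is rat, and the knockout allele are not given in the sources used here. Chimeric livers also hold mouse cells of the host, and any binding of mouse RNA to these rat probes was not tested.

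Levels below are log2 of the array signal relative to each array's 75th percentile, and they compare arrays for 1 probe, never 2 genes. A difference was called where limma's p, adjusted by Benjamini-Hochberg over all genes tested, was under 0.05. The ± of a difference is a standard error, that of a level an SD between arrays, and precision is limited by how many arrays a group has. In these bulk samples, fewer cells of a type and less RNA per cell cannot be told apart.

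The 75th percentile of signal was 197.5 to 317.9 on chimeric arrays, 413.8 to 459.6 on SD arrays and 441.1 to 568.3 on CAR KO arrays. All 17 hepatocyte markers were well above background on every array, with summed linear levels of 4362 to 6267 for the whole series. The summed levels of 13 macrophage and Kupffer markers were 39.9 to 67.8 in chimeric livers and 59.0 to 123.4 in rat livers, and those of 12 stellate and fibroblast markers 4.56 to 8.08 and 13.9 to 25.4. The summed level of 8 cholangiocyte markers was 5.996 to 12.7 in chimeric and 3.63 to 5.36 in rat livers, but single markers were mixed. Against SD rats, 3 of 8 were higher and 3 lower in chimeric mice on control diet, and 3 of 7 higher and 2 lower on PB. Between CAR KO and SD controls, 8 of 17 hepatocyte and 5 of 13 macrophage markers were lower in CAR KO rats and 0 higher. Of all genes tested there, 19.7% were lower and 14.4% higher. On PB in chimeric mice, 23.4% of all genes tested fell and 19.3% rose. Among markers that could be tested there, 4 of 17 hepatocyte, 4 of 8 macrophage and 3 of 3 T, NK and B cell markers fell. Only 1 hepatocyte marker rose. The part of these markers in the member values below was not tested. The Nr1i3 probe read -0.21 to 1.35 in CAR KO and 0.24 to 1.88 in SD rats. Its place relative to the deletion is not given, so it does not check the label. Cyp2b2, a P450 gene that phenobarbital induces, was 6.56 to 7.35 in SD rats on PB and 2.65 to 2.91 in CAR KO rats on PB. Arrays with the same scan time in the file headers were taken as being on the same slide. SD and CAR KO rats were on different slides, with control arrays in row 1 and PB arrays in row 2 of each, so strain and slide, and in rats diet and row, cannot be told apart. The 7 chimeric controls and PB animal 1 shared a slide, and PB animals 2 to 7 were on another.

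In the rat genome (RefSeq, GRCr8), Ces1f, Ces1e, Ces1d and Ces1c lie next to each other on chromosome 19 with 0 other genes between neighbours. Ces2a, Ces2e and Ces2j lie on the same chromosome, with 5 genes between Ces2e and Ces2j. Ces2h is also on chromosome 19, while Ces2c is on chromosome 1 and Aadac on chromosome 2. Promoter windows from 250 bases before to 50 bases after the start are shown for 5 genes that were called higher on PB in at least 1 model. Capitals mark the hexamers AGTTCA and AGGTCA, the half-sites that CAR and related receptors can bind, and the CCAAT box, each on either strand.
Ces2c, chr1:270376951-270377250 (+): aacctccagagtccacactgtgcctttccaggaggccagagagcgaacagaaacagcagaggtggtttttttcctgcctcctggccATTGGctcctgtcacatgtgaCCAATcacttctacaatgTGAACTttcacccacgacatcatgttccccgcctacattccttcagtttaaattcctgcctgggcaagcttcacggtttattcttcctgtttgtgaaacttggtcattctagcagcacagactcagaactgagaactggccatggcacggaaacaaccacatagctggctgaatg
Ces2j, chr19:304819-305118 (+): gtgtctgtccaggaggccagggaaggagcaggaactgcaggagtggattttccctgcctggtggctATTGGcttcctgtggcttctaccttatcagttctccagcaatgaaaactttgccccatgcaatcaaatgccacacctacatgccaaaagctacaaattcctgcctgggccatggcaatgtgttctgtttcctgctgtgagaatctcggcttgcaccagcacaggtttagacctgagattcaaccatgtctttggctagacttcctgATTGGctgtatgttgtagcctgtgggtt
Ces2h, chr19:49883914-49884213 (+): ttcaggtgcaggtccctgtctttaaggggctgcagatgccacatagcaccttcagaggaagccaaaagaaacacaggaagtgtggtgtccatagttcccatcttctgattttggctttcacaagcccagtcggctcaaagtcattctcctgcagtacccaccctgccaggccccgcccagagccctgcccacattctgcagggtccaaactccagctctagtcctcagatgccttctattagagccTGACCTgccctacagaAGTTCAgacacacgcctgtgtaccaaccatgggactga
Ces2e, chr19:163649-163948 (+): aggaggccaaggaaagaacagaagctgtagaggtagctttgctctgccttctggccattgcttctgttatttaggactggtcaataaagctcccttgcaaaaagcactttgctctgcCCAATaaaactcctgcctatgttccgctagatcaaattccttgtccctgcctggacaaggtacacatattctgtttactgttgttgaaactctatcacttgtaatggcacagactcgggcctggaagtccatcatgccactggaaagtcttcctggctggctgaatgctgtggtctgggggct
Ces1f, chr19:29969383-29969682 (+): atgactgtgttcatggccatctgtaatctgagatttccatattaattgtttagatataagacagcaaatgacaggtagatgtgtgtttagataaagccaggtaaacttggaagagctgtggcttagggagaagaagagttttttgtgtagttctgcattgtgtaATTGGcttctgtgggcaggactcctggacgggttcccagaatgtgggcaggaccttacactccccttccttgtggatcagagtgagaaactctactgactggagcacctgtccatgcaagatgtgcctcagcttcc

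AGTTCA, searched on both strands, occurred in 5 of the 9 members with a probe and in 14.5% of 33469 promoters, and AGGTCA in 1 of the 9 and in 16.2%. Among the 5 windows printed, Ces2c held an AGTTCA match starting 125 bases before the start, and Ces2h held 1 match of each hexamer next to the start. Ces2j, Ces2e and Ces1f held neither hexamer in this window. CCAAT was found in 6 of the 9 members and in 37.5% of all promoters. The direct repeat of AGGTCA or AGTTCA with 4 bases between the 2 copies was in 0 of the 9 and in 0.0179% of promoters, so few promoters hold it at all. TATAAA and TGACNNNGC were in 0 of the 9 (14.2% and 12.1% of promoters), and CAAAGT was in 4 (14.8%). Over 36 pairs of member windows, aligned identity was 46.5% to 63.0% with a median of 50.6%. The pairs Ces2e with Ces2j (63.0%) and Ces2c with Ces2j (61.0%) were the most alike, although Ces2c is on another chromosome. Ces2c and Ces2j share the 16-base run aaattcctgcctgggc, which starts 76 and 91 bases before their starts and is in 3 other promoters of the table. A match of letters shows no binding.

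In SD rats, 7 days of PB raised 3 of the 9 measured members, all of family 2. Ces2c rose 13.2-fold, Ces2j 5.51-fold and Ces2h 1.74-fold. No family 1 gene and not Aadac passed the test. Over all genes tested, 4.3% were called in either direction, 2.5% higher and 1.8% lower. The median log2 difference was 0.49 over the members and -0.02 over all genes.

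Ces2c, which in mouse encodes a liver hydrolase of acylglycerols, read -1.19, -0.50, -0.60 and -0.83 in the 4 SD controls and 2.81, 3.61, 3.06 and 2.30 in the 4 SD rats on PB. The lowest PB array was well above the highest control. The difference was 3.72 ± 0.27 (limma, adjusted p = 2.82e-06). Ces2j read 0.70, 0.69, 1.73 and 0.69 in controls and 3.14, 3.61, 4.05 and 2.85 on PB. SD control 3 stood above the other controls for this gene, and it was still below every PB array. The difference was 2.46 ± 0.34 (limma, adjusted p = 0.00112). Ces2h read -0.47, -0.49, -0.39 and -0.06 in controls and 0.38, 0.56, 0.41 and 0.43 on PB. These groups did not overlap either, and the difference was 0.80 ± 0.10 (limma, adjusted p = 0.000638). With all 30 arrays in a single fit the Ces2h call was lost (adjusted p = 0.48).

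**Figure D1:**
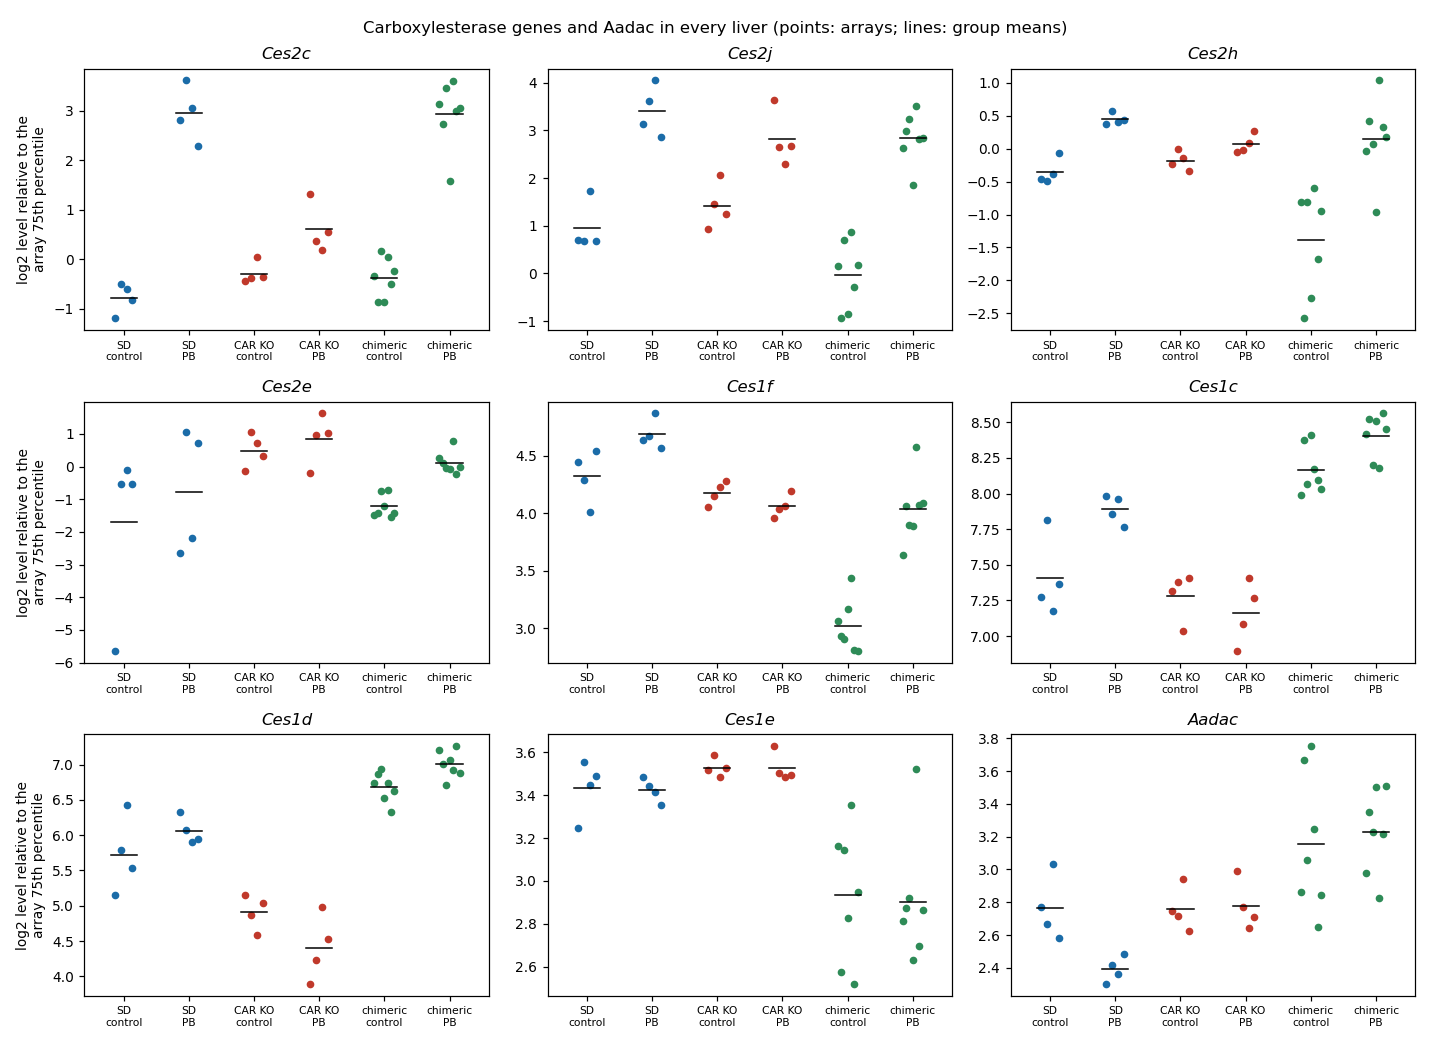
Level of each measured member on every array (points; vertical axis, log2 signal relative to the array's 75th percentile, scaled separately for each gene) in the 6 groups, with group means as lines. Ces2c on PB lies at 2.30 to 3.61 in SD rats, 0.19 to 1.32 in CAR KO rats and 1.58 to 3.61 in chimeric mice, and Ces2e falls as low as -5.64 in SD control 1.

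Ces2e, the family 2 neighbour of Ces2a, differed far more between SD animals than between diets. It read -5.64, -0.52, -0.10 and -0.53 in the SD controls and -2.63, 1.07, -2.20 and 0.70 in the SD rats on PB. SD control 1 and SD PB 1 and 3 were low, and the probe was well above background on 3 of the 4 control arrays. The CAR KO rats showed no such split, with -0.13, 1.06, 0.71 and 0.31 in controls and -0.20, 0.96, 1.63 and 1.02 on PB. The SD difference of 0.93 ± 1.10 (limma, adjusted p = 0.681; 95% interval -1.43 to 3.30) allows a rise as large as that of Ces2j or a fall. Without SD control 1 its direction turned, to -0.38.

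Among the family 1 genes in SD rats, Ces1f read 4.45, 4.29, 4.01 and 4.54 in controls and 4.64, 4.67, 4.87 and 4.57 on PB. Its groups did not overlap, yet the difference of 0.37 ± 0.10 missed the threshold (limma, adjusted p = 0.0627). Ces1c read 7.28, 7.81, 7.17 and 7.36 in controls and 7.98, 7.86, 7.96 and 7.76 on PB. Control 2 lay among the PB arrays, and the difference was 0.49 ± 0.14 (limma, adjusted p = 0.0636). Its second probe gave 0.58 ± 0.20 (adjusted p = 0.119). Ces1d differed by 0.34 ± 0.25 (limma, adjusted p = 0.491), and its controls ranged from 5.15 to 6.43. Ces1e was nearly level, at -0.01 ± 0.07 with a 95% interval of -0.15 to 0.13.

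Aadac, whose human counterpart deacetylates drugs such as flutamide and phenacetin, was the only measured member besides Ces1e with a lower mean in SD rats on PB. It read 2.77, 2.67, 3.03 and 2.58 in controls and 2.30, 2.42, 2.36 and 2.48 on PB. The groups did not overlap, and the difference of -0.37 ± 0.10 narrowly missed the threshold (limma, adjusted p = 0.0551). It passed in 4 of 12 other settings, among them quantile normalization (limma, adjusted p = 0.044) and normexp background correction (0.0488). In the other 8 it stayed uncalled, with adjusted p up to 0.65. Of 16 fits that left out 1 array, 14 left it uncalled, while that without SD control 4 called it (-0.43, adjusted p = 0.0461). Without SD control 4, Ces1f passed as well (0.44, adjusted p = 0.0391), and without SD control 2, Ces1c passed (0.62, adjusted p = 0.0124). Each of these 2 genes stayed uncalled in 15 of 16 such fits and in 10 of 12 other settings.

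In CAR KO rats, limma called none of the 9 members in either direction, beside 0.205% of all genes. At an unadjusted p under 0.05 there were 3 of the 9 members, Ces2c, Ces2h and Ces2j, and 2857 of all 17551 genes tested. The members' median difference was 0.02, against -0.02 over all genes. The 3 genes past the unadjusted threshold were the same ones called in SD rats, each with a smaller difference.

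Ces2c read -0.45, -0.38, 0.04 and -0.37 in CAR KO controls and 1.32, 0.37, 0.19 and 0.55 on PB. Every PB array was above every control, by little for PB 2 and PB 3, and the difference was 0.90 ± 0.27 (limma, adjusted p = 0.145). Ces2j read 0.94, 1.46, 2.06 and 1.24 in controls and 3.63, 2.65, 2.30 and 2.67 on PB. These groups also did not overlap, with a difference of 1.39 ± 0.34, or 2.61-fold, that missed the threshold (limma, adjusted p = 0.0868). It passed in 1 of 12 other settings, when dim probes were kept in the test (adjusted p = 0.0491), which raised calls over all genes from 36 to 1712. All 16 fits that left out 1 array left it uncalled. Ces2h differed by 0.25 ± 0.10 (limma, adjusted p = 0.25), with groups that overlapped.

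CAR KO PB 1 had the highest Ces2c (1.32) and Ces2j (3.63) of its group. Its Ugt2b1, a glucuronosyltransferase gene, was also highest, at 3.36 against 1.22 to 2.33 in the other 3, while its Cyp2b2 was lowest, at 2.65. The same array had the lowest Ces1d (3.89) and Ces1c (6.90) of its group. On PB, Ces2j in CAR KO rats differed from SD rats by -0.60 with this array, which was not called, and by -0.88 without it, which was (limma, adjusted p = 0.0485).

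The PB response itself differed between CAR KO and SD rats for 1 of the 9 members, Ces2c, at a background of 0.533% of all genes, 0.427% with a lower signed difference. The response of Ces2c was smaller by -2.83 ± 0.39 on the log2 scale in CAR KO rats (limma, adjusted p = 0.00375). For Ces2j the difference of responses was -1.08 ± 0.49 and did not pass (limma, adjusted p = 0.362; 95% interval -2.12 to -0.03). For Ces2h it was -0.55 ± 0.15 (limma, adjusted p = 0.131). It passed without SD control 4 (-0.64, adjusted p = 0.0395), while 15 of 16 fits that left out 1 array and 12 of 12 other settings left it uncalled. Ces1c (-0.60), Ces1d (-0.84), Ces1f (-0.48) and Ces2e (-0.57) also had smaller or opposite mean responses in CAR KO rats, and Aadac a higher one (0.39). None of these 5 passed.

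**Figure D2:**
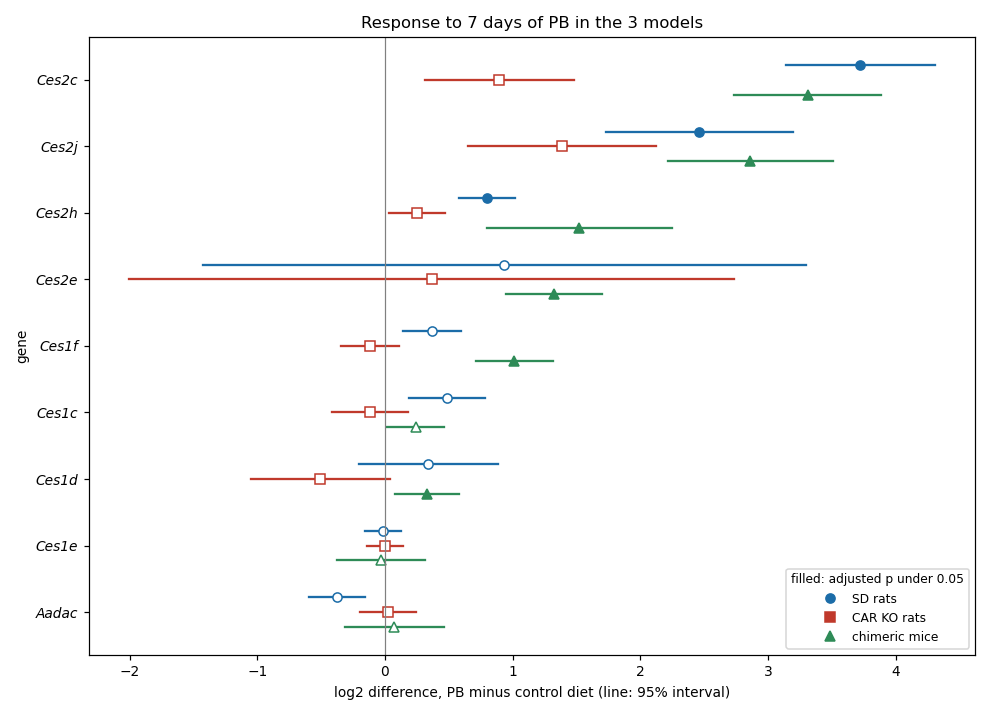
Log2 difference between PB and control diet (horizontal axis) for each measured member in SD rats (circles), CAR KO rats (squares) and chimeric mice (triangles), with 95% intervals as lines. Filled symbols passed the test, and Ces2c stands at 3.72 in SD rats, 0.90 in CAR KO rats and 3.31 in chimeric mice.

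In chimeric mice, PB raised 6 of the 9 members and lowered none. The called genes were all 4 measured family 2 genes, Ces2c (9.93-fold), Ces2j (7.27-fold), Ces2h (2.88-fold) and Ces2e (2.51-fold), and the family 1 genes Ces1f (2.02-fold) and Ces1d (1.26-fold). Ces1c, Ces1e and Aadac did not pass. Of all genes tested, 42.7% were called and 19.3% were called higher, so a call is far more common here than in the rats. The members' median difference was 1.02, against 0.06 over all genes.

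Ces2c had a lowest, median and highest level of -0.87, -0.35 and 0.16 in the 7 chimeric controls and 1.58, 3.07 and 3.61 in the 7 mice on PB. No PB array came near the controls, and the difference was 3.31 ± 0.27 (limma, adjusted p = 9.52e-07). Ces2j had -0.93, 0.15 and 0.88 in controls and 1.85, 2.84 and 3.52 on PB. The groups were again apart, by 2.86 ± 0.30 (limma, adjusted p = 1.09e-05). Ces2e had -1.53, -1.42 and -0.71 in controls and -0.23, -0.03 and 0.78 on PB. Its wide split among SD animals was not seen in these mice, and the difference was 1.33 ± 0.18 (limma, adjusted p = 5.91e-05). With all 30 arrays in a single fit this call was lost (adjusted p = 0.0704).

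Ces2h had -2.57, -0.95 and -0.59 in chimeric controls and -0.97, 0.18 and 1.03 on PB. Only PB 4 reached into the control range, and the difference was 1.52 ± 0.34 (limma, adjusted p = 0.00219). Ces1f, next to Ces1e in the family 1 cluster, had 2.80, 2.93 and 3.44 in controls and 3.63, 4.07 and 4.57 on PB. The 2 groups did not overlap, and the difference was 1.02 ± 0.14 (limma, adjusted p = 8.37e-05). Ces1d had 6.33, 6.74 and 6.94 in controls and 6.72, 7.01 and 7.26 on PB, which overlap. Its difference of 0.33 ± 0.12 passed (limma, adjusted p = 0.0347) but the call was lost without any 1 of control 4, 6 or 7 or of PB 1, 2, 4 or 6 (0.27 to 0.33, adjusted p = 0.0529 to 0.0781).

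Ces1c had 7.99, 8.09 and 8.41 in chimeric controls and 8.18, 8.45 and 8.56 on PB, a difference of 0.24 ± 0.10 that did not pass (limma, adjusted p = 0.0743). It passed without control 2, control 4 or PB 5 (0.28 in each case, adjusted p = 0.0424 to 0.0499), and 11 of 14 fits that left out 1 array did not call it. Of 13 other settings, 5 called it. Ces1e differed by -0.03 ± 0.16 and Aadac by 0.08 ± 0.18 in chimeric mice. Their 95% intervals were -0.37 to 0.31 and -0.31 to 0.46.

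The chimeric PB group holds 1 array, PB 1, on the slide of the 7 controls. For each of the 6 called genes, PB 1 was above all 7 controls on that slide: 3.13 for Ces2c, 2.64 for Ces2j, -0.04 for Ces2h, 0.25 for Ces2e, 3.63 for Ces1f and 7.21 for Ces1d. With slide as a block, which rests on that array, the differences were 3.50 for Ces2c, 2.66 for Ces2j, 1.47 for Ces2e, 1.34 for Ces2h, 0.62 for Ces1f and 0.52 for Ces1d. Only Ces2c was still called (limma, adjusted p = 0.00666), and the others had adjusted p from 0.0644 to 0.548. The 7 chimeric controls and the 7 PB arrays otherwise differ in slide as well as diet.

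Signal strength moved with some of these levels. Chimeric controls 2 and 4 had the lowest signal of their group (75th percentiles of 235.2 and 215.8, with 53.1% and 51.5% of probes well above background), and PB 4 the lowest of all arrays (197.5, with 50.9%). Controls 2 and 4 had the lowest levels of their group for Ces2c (-0.87 and -0.86), Ces2j (-0.93 and -0.84) and Ces2h (-2.57 and -2.26). PB 4 was lowest of its group for the same genes, at 1.58, 1.85 and -0.97. Controls 2 and 4 were instead highest of their group for Ces1c by its brighter probe (8.38 and 8.41) and for Aadac (3.67 and 3.75). PB 4 was not highest of its group for either gene. The part of signal strength in these levels was not tested.

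The PB responses of chimeric mice and SD rats were compared directly, at a background of 18.9% of all genes called and 6.29% with a higher signed difference. Of the 9 members, 1 differed: the response of Ces1f was larger in chimeric mice by 0.65 ± 0.19 (limma, adjusted p = 0.0182). This call was lost with quantile normalization (0.49, adjusted p = 0.0672), with only these 4 groups in the fit (adjusted p = 0.0505), without SD control 4 (0.57, adjusted p = 0.051), and with slide as a block (0.25, adjusted p = 0.946). For Ces2c the difference of responses was -0.41 ± 0.41 (adjusted p = 0.536), with a 95% interval of -1.26 to 0.44 that allows a response more than 2-fold smaller in chimeric mice. For Ces2j it was 0.40 ± 0.49 (-0.60 to 1.40) and for Ces2h 0.73 ± 0.43 (-0.16 to 1.61). These intervals do not show that the responses were alike.

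Levels were next compared between CAR KO and SD rats on the same diet. On control diet 1 of 9 members was called, lower in CAR KO, at a background of 34.1% of all genes and 19.7% lower. Ces1d, the triacylglycerol hydrolase gene, read 5.16, 4.86, 4.59 and 5.03 in CAR KO controls and 5.15, 5.79, 6.43 and 5.54 in SD controls. Only CAR KO control 1 reached the SD range, and the difference was -0.82 ± 0.25 (limma, adjusted p = 0.0235). It was not called without SD control 3 (-0.58, adjusted p = 0.0714) or without CAR KO control 3 (-0.71, adjusted p = 0.0653).

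On PB, 6 of 9 members were called between CAR KO and SD rats, 5 lower and 1 higher in CAR KO, where 42.1% of all genes were called, 25.1% lower and 16.9% higher. The median difference was -0.60 over the members and -0.06 over all genes. Ces2c was lower by -2.34 ± 0.27 and Ces1d by -1.66 ± 0.25 (limma, adjusted p = 1.42e-05 and 0.000153). Ces1d read 3.89, 4.23, 4.98 and 4.53 in CAR KO rats and 6.33, 6.07, 5.91 and 5.95 in SD rats on PB, with no overlap. Ces1c (-0.73), Ces1f (-0.62) and Ces2h (-0.38) were also lower in CAR KO rats, and Aadac was higher by 0.39 ± 0.10 (limma, adjusted p = 0.00739). The 2 sets of arrays did not overlap for any of these 6 genes, nor for Ces1e, which was not called. How common this is over all genes was not counted. With all 30 arrays in a single fit the calls for Aadac (adjusted p = 0.162) and Ces2h (0.507) were lost, which left 4. Ces1e (0.10) and Ces2e (1.62) were not called, and the Ces2e interval ran from -0.74 to 3.98. In the same comparison 2 of 17 hepatocyte and 7 of 13 macrophage and Kupffer markers were lower in CAR KO rats, and their part in the member values was not tested.

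**Figure D3:**
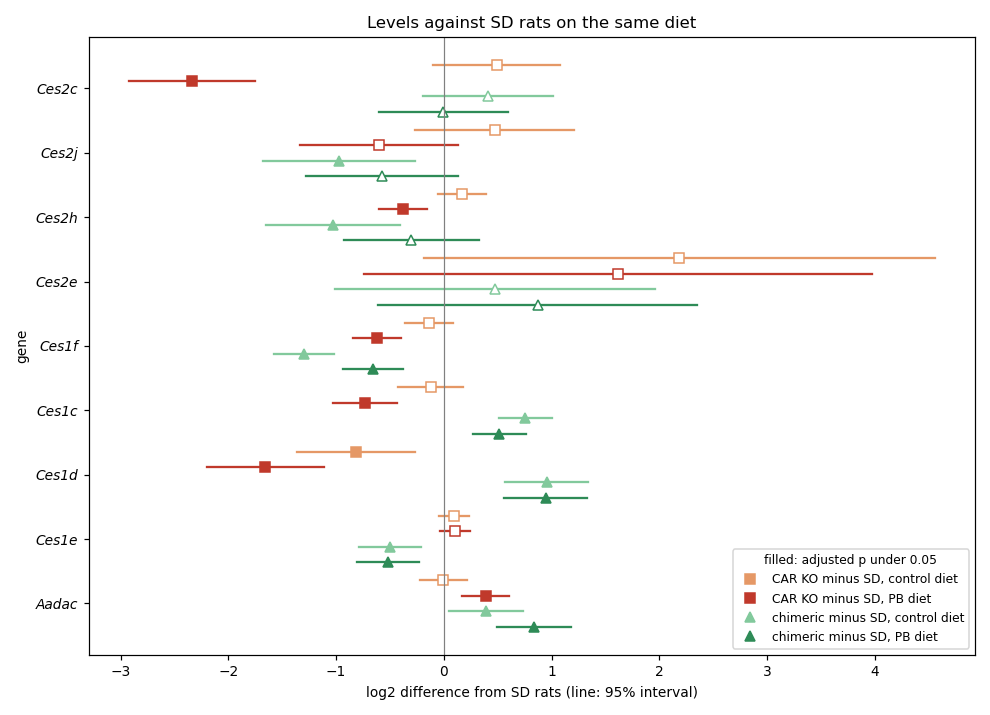
Log2 difference in level from SD rats on the same diet (horizontal axis) for CAR KO rats (squares) and chimeric mice (triangles), paler on control diet and darker on PB, with 95% intervals as lines. Filled symbols passed the test: on PB, CAR KO rats stand at -2.34 for Ces2c, and chimeric mice at -0.004 for the same gene.

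Chimeric mice differed from SD rats on control diet in 7 of 9 members, 3 higher and 4 lower, at a background of 74.6% of all genes called, 38.7% higher and 35.9% lower. Ces1c (0.76), Ces1d (0.95) and Aadac (0.39) were higher in chimeric mice. Ces1f (-1.30), Ces2h (-1.03), Ces2j (-0.97) and Ces1e (-0.50) were lower. Ces1f was 2.80 to 3.44 in chimeric controls and 4.01 to 4.54 in SD controls, with no overlap (limma, adjusted p = 3.36e-09). The call for Aadac was lost without any 1 of chimeric control 2, 4 or 5 or of SD control 1, 2 or 4 (0.29 to 0.39, adjusted p = 0.054 to 0.11). That for Ces2j was lost without SD control 3 (-0.71, adjusted p = 0.0823).

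On PB, 5 of 9 members were called between chimeric mice and SD rats, at a background of 72.7%, 38.8% higher and 33.9% lower. Ces1c (0.51), Ces1d (0.94) and Aadac (0.84) were higher in chimeric mice, and Ces1f (-0.65) and Ces1e (-0.52) lower. Ces2c stood at 2.94 ± 0.67 (n = 7) in chimeric mice and 2.95 ± 0.55 (n = 4) in SD rats on PB, a difference of -0.004 with a 95% interval of -0.60 to 0.60. With quantile normalization, Ces1d was not called on either diet (0.25 on each, adjusted p = 0.291 and 0.305), and Aadac on control diet stood at 0.003. Of the markers, 8 of 17 for hepatocytes and 12 of 13 for macrophages and Kupffer cells were lower in chimeric mice on PB, and 7 of 17 and 11 of 13 on control diet, while 2 hepatocyte markers were higher on each diet. Their part in the member values was not tested. All chimeric and SD arrays were on different slides, so model and slide cannot be told apart.

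The 2 probes of Ces1c disagreed on the direction of this difference. The probe used above, A_42_P559831, read 7.99 to 8.41 in chimeric and 7.17 to 7.81 in SD controls. The other, A_44_P122912, read 2.33 to 3.62 in chimeric and 3.83 to 4.71 in SD controls. The second probe was thus lower in chimeric mice by -1.20 ± 0.25 on control diet and -1.14 ± 0.25 on PB (limma, adjusted p = 0.000126 and 0.000207), where the first was higher. In the rats both probes behaved alike, with a lower level in CAR KO than in SD rats on PB (-0.73 and -0.83, both called). The level of Ces1c in chimeric mice relative to SD rats therefore has no settled direction.

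For Ces1e the 2 probes had the same direction in chimeric mice but not the same size. A_64_P115157 was lower than in SD rats by -0.50 on control diet and -0.52 on PB, and A_64_P006498 by -1.89 and -1.51 (limma, all 4 called). The second probe was also lower in CAR KO than in SD rats, by -0.21 and -0.24 (adjusted p = 0.0302 and 0.0122), where the first gave 0.09 and 0.10 with no call. Neither probe was called for a PB response in any model. Genes of family 1 resemble each other in sequence, and which transcripts each probe binds was not tested.

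**Figure D4:**
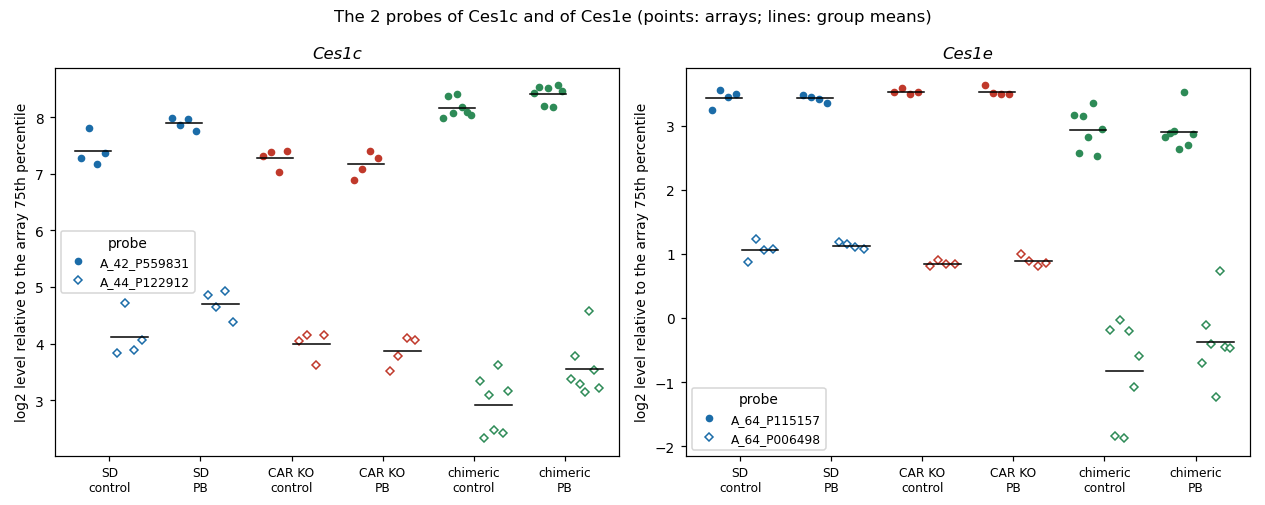
Level of the 2 probes of Ces1c (left) and Ces1e (right) on every array (vertical axis, log2 signal relative to the array's 75th percentile), filled circles for the probe used and open diamonds for the other, with group means as lines. In chimeric mice on control diet the used Ces1c probe lies at 7.99 to 8.41, above the SD controls, and the other at 2.33 to 3.62, below them.

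Ordered by group mean, Ces2c was highest in SD rats on PB (2.95 ± 0.55, n = 4) and chimeric mice on PB (2.94 ± 0.67, n = 7), which did not differ by the test. CAR KO rats on PB followed (0.61 ± 0.50, n = 4), then CAR KO controls (-0.29 ± 0.22, n = 4), chimeric controls (-0.37 ± 0.40, n = 7) and SD controls (-0.78 ± 0.30, n = 4). The 3 control groups lay within 0.49 of each other, and neither CAR KO nor chimeric controls passed against SD controls. For Ces2c the CAR KO controls (-0.45 to 0.04) lay above the SD controls (-1.19 to -0.50), by 0.49 ± 0.27 on average, which was not called (limma, adjusted p = 0.1855). How often control groups separate in this way over all genes was not counted. Ces2j ran from SD rats on PB (3.41 ± 0.53, n = 4) through chimeric mice on PB (2.84 ± 0.53, n = 7) and CAR KO rats on PB (2.81 ± 0.57, n = 4), neither of which was called against SD rats on PB. The chimeric difference was called with quantile normalization (-1.03, adjusted p = 0.0103). CAR KO controls (1.42 ± 0.47, n = 4), SD controls (0.95 ± 0.52, n = 4) and chimeric controls (-0.02 ± 0.71, n = 7) completed the order. Chimeric and SD controls were called apart, CAR KO and SD controls were not, and CAR KO and chimeric mice were not compared.

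The genes whose PB responses in the 3 models were most like those of Ces2c and Ces2j were sought among 8770 named genes, by the root mean square difference of the 3 log2 responses. For Ces2c they were Ugt2b1 (0.65), Aldh1a1 (0.66), Ces2j (0.82), Dusp13b (0.86) and Akr7a3 (0.89). Aldh1a1, a retinaldehyde dehydrogenase gene, had responses of 4.37 in SD rats, 0.67 in CAR KO rats and 2.39 in chimeric mice. For Ces2j they were Sdr16c6 (0.41), Akr7a3 (0.42), Gpx2 (0.56), Ephx1 (0.56) and Dusp13b (0.59). Akr7a3, an aldehyde reductase gene known for aflatoxin detoxification in rat, had responses of 2.21, 0.73 and 3.04.

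Of 17 other carboxylesterase and Aadac-related genes listed, 5 could be tested in SD rats, where 2 rose and 1 fell, beside 2.5% and 1.8% of all genes. Ces1a was higher on PB in SD rats by 0.97 ± 0.23 (limma, adjusted p = 0.0282), with -3.14 to -1.81 in controls and -1.84 to -1.47 on PB, which just overlap. In chimeric mice it was lower on PB by -1.14 ± 0.31 (adjusted p = 0.00732), and the responses differed by -2.10 ± 0.43 (adjusted p = 0.00122). The direction in chimeric mice turned with slide as a block (0.71, adjusted p = 0.336), since PB 1, at 0.55, was above all 7 controls (-0.40 to 0.21) on their common slide. Leaving out 1 rat array moved the SD value of Ces1a between 0.77 and 1.22, with 10 of 16 such fits calling it.

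Nceh1, which encodes a neutral cholesterol ester hydrolase, rose by 0.87 ± 0.23 in SD rats (limma, adjusted p = 0.0489) and by 1.67 ± 0.32 in chimeric mice (adjusted p = 0.00076). With slide as a block the chimeric call was lost (1.77 ± 0.67, adjusted p = 0.327). Its SD call held in 3 of 16 fits that left out 1 array (0.74 to 1.12), and its second probe gave 0.16 ± 0.38 there. Ces5a fell by 0.63 on the log2 scale in SD rats (limma, adjusted p = 0.0156), where its probe was well above background on 4 of 4 control and 1 of 4 PB arrays, so most PB values lie near the limit of measurement. Over other settings its value ran from -0.63 to -0.09, and 8 of 12 called it. Ces2g and Ces4a were not called for a PB response in any model in which they were tested. Ces2b, Aadacl2, Aadacl3 and Aadacl4fm1 were not well above background on most arrays. In CAR KO rats limma called 0 of the 6 that could be tested, with 2 at an unadjusted p under 0.05. These were Nceh1 (-0.51) and Aadacl3 (-0.79), whose probe was well above background on 4 of 4 control and 0 of 4 PB arrays.

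Among 17 other drug ester and amide hydrolases, 16 were tested in SD rats, with 3 higher and 1 lower and a median of -0.01. Over all genes 2.5% were higher and 1.8% lower. The 3 were Aldh1a1 (4.37), which has esterase activity beside its main one, Ephx1 (2.01), the microsomal epoxide hydrolase, and Esd (0.28), which encodes esterase D. Lcat, for the plasma enzyme that esterifies cholesterol, fell by 0.38. In chimeric mice 5 of 14 rose, Ephx1 (3.12), Aldh1a1 (2.39), Afmid (0.88), Bphl (0.67) and Esd (0.46), and 0 fell, where 19.3% of all genes rose and 23.4% fell. The list's median was 0.31 there, against 0.06 over all genes. Limma called 0 of 15 in CAR KO rats, where the median was 0.03 and 3 genes were at an unadjusted p under 0.05, Ephx1 (0.56) among them.

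Of 28 neutral lipid lipases and thioesterases, 23 were tested in SD rats and 1 was called, beside 4.3% of all genes. This was Lpl, which encodes lipoprotein lipase (1.20 ± 0.28, limma, adjusted p = 0.0282). In chimeric mice 6 of 21 rose and 1 fell, where 19.3% of all genes rose and 23.4% fell. Lpl (5.86 ± 0.31), Mgll (1.36), Abhd12 (0.81) and Acot8 (0.76) were among those that rose, and Pnpla5 (-2.06) fell. Of 22 genes for lipoprotein assembly and triglyceride synthesis, 18 were tested in each model. In SD rats Plin2 (-0.59) and Apoc3 (-0.29) fell and 0 rose, where 1.8% of all genes fell and 2.5% rose. In chimeric mice 5 rose, among them Sar1b (0.79), Tm6sf2 (0.58) and Mttp (0.57), which encodes the transfer protein that loads lipid onto apolipoprotein B. There 2 fell, Gpam (-0.88) and Apoc3 (-0.43), again beside 19.3% of all genes higher and 23.4% lower. Limma called 0 of 23 and 0 of 18 of these lists in CAR KO rats, with medians of 0.01 and 0.05 and with 2 and 3 genes at an unadjusted p under 0.05.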

How the data were processed

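Per the labels' protocols, liver RNA was labelled with Cy3. Per the file headers, 30 arrays of 62976 spots were read by Agilent Feature Extraction 10.7.3.1, protocol GE1_107_Sep09; the files of chimeric PB 2 to 7 name neither build nor array design, and the others name design 028279 and rn4, whose coordinates were not used. The deposited intensity values are processed signals, background-subtracted within an array. The deposited series matrix holds log2 values whose scale, centring and direction per array are not given. Its columns had a correlation of 1 with log2 processed signal, so the direction matches, while the offset taken from each array stays unknown, with column medians of -4.22 to -3.38; it served as an alternative.

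After control spots and outlier flags were removed, spots were averaged by probe (30367 probes, 18004 named through rat RefSeq genes of GRCr8, used for names and neighbours only). Values were log2 processed signal minus the array's 75th percentile. A gene with several probes was read from its brightest one across the 16 rat arrays. Genes entered a test if a compared group had 75% or more of its arrays well above background, with limma 3.58.1 (lmFit and eBayes; R 4.3.3, the R package data.table, version 1.17.8) and Benjamini-Hochberg adjustment. The 16 rat arrays made 1 fit, the 14 chimeric arrays another, and all 30 the comparisons of both. The procedure was tested on simulated data. The planned normexp alternative (offset 50) used median in place of mean spot signal, since mean signal was not among the columns used here.

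Named were all members with each probe, all measured other carboxylesterases, of the 3 lists of hydrolases and lipid genes at most the 5 largest changes past the test per comparison, and the 5 genes most like a member called in SD rats with a log2 change of at least 1. Members and lists were chosen with earlier results of these data known. The labels call the arrays biological replicates.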

Additional observations from a re-analysis of the deposited data

Results flagged for a closer look

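Levels of members that stood apart within their group by Dixon's gap test (95% level) were found in 6 of 66 groups of arrays and probes, and chance marks about 1 in 20. Ces2e was -5.64 in SD control 1, with the nearest other control at -0.53. Ces2j was 1.73 in SD control 3, with the nearest at 0.70. Ces2c was 0.04 in CAR KO control 3, with the nearest at -0.37, and 1.58 in chimeric PB 4, with the nearest at 2.74. Ces1e was 3.63 in CAR KO PB 1, with the nearest at 3.50, and 3.52 in chimeric PB 5, with the nearest at 2.92.

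Responses to PB that differed between models by the test of the difference itself were those of Ces2c, by -2.83 between CAR KO and SD rats, and of Ces1f, by 0.65 between chimeric mice and SD rats.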

How the results depend on the processing

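Of 963 recomputed results outside the leave-one-out fits, 904 kept their direction and their side of the threshold. Another 24 lost a call, 16 gained one, and 16 changed direction with no call in either fit. The remaining 3 reversed, with a call in at least 1 of the fits. All 3 concern Ces1c in chimeric mice against SD rats, at -0.22 (control diet) and -0.31 (PB) with the mean of its probes and at -0.0083 (PB) with quantile normalization. The number of members called went to 6 in SD rats without a filter on dim probes and with a trended, robust spread, to 1 in CAR KO rats without the filter, and to 4 between chimeric and SD controls with quantile normalization. It went to 0 for the chimeric minus SD response with quantile normalization, with only these groups in the fit, and with slide as a block, and to 1 for the chimeric response with slide as a block. Leaving out 1 array gave 3 to 5 members in SD rats, 1 to 2 for the CAR KO minus SD response, 0 to 2 between CAR KO and SD controls and 0 to 1 for the chimeric minus SD response. The causes were not tested.

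Replicate numbers were not used to pair animals in the main fits. Same-number correlations ran from -0.217 to 0.822 in chimeric mice, -0.132 to 0.0968 in SD and -0.237 to 0.102 in CAR KO rats. The own number was best for 3 of 7, 1 of 4 and 1 of 4. Chimeric numbers 4 to 7 had 0.822, 0.53, 0.328 and 0.25, and numbers 1 to 3 had -0.038, -0.217 and 0.028. These values cannot decide whether the numbers pair animals, since which animals belong together is not given. With the number as a replicate block, 0 members were called between CAR KO and SD controls (Ces1d, limma, adjusted p = 0.0845) and 5 for the chimeric response. Between chimeric mice and SD rats on PB, 6 were called (Ces2j added, -0.74, adjusted p = 0.042). All-gene calls fell to 315 in SD rats, 3 in CAR KO rats and 25 for their difference. They rose from 6168 to 7043 for the chimeric response and from 3254 to 3863 for the chimeric minus SD response.

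Calls over all genes in SD rats were 732, and 186 with only the groups compared, 200 with all 30 arrays in 1 fit and 3523 without the filter, and 396 to 704 when 1 array was left out. In CAR KO rats they were 36, 0 (with 3086 at an unadjusted p under 0.05), 23 and 1712, and 7 to 43 when 1 array was left out. With all 30 arrays they fell from 95 to 39 for the CAR KO minus SD response, from 6038 to 2120 between controls and from 6978 to 2925 on PB. With slide as a block they fell from 6168 to 158 in chimeric mice and from 3254 to 32 for the chimeric minus SD response. Normexp correction moved the share called higher from 51.9% to 69.8% (control) and 53.4% to 70.2% (PB) between chimeric mice and SD rats, and from 42.2% to 27.5% between CAR KO and SD controls; their all-gene medians were 0.25, 0.23 and -0.11. For the CAR KO response that share went from 25% to 41.5% with normexp, 44.8% with quantile normalization and 37.5% with median centring. Signal over background was lowest on chimeric arrays, where 50.8% to 58.1% of probes were well above background.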
